A study of Homo sapiens with 5 samples.

Results

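The genes for the 2 mTOR kinase complexes and their closest regulators were examined in ribosome footprints of ZCCHC4 knockout and wild-type HAP1 cells. The set was defined by gene symbol alone and held 10 genes, each with 1 row among the 13638 rows of the count table: MTOR, RPTOR, RICTOR, MLST8, AKT1S1, DEPTOR, TSC1, TSC2, RHEB and EIF4EBP1. All 10 passed the filter on low counts that left 11205 genes for testing. HAP1 is a human cell line of leukaemic origin (chronic myeloid leukaemia) with a nearly haploid genome, and ZCCHC4 is the enzyme that the series describes as placing N6-methyladenosine on 28S ribosomal RNA. The groups were ZCCHC4 knockout HAP1 cells (3 libraries) and wild-type HAP1 cells (2 libraries), with no other treatment or allele named in the labels. Cycloheximide was present during lysis in all libraries. The labels do not say whether the knockout libraries came from 1 clone, or whether libraries of a genotype came from separate cultures, so the spread behind each p-value is that between these libraries and may be technical.

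mTOR is a protein kinase that links growth factors, energy and amino acids to protein synthesis. It works in complex 1 (mTORC1), with the substrate-binding subunit RPTOR, and in complex 2 (mTORC2), with RICTOR, while MLST8 belongs to both. AKT1S1 (PRAS40) and DEPTOR bind and inhibit the kinase. The TSC1 and TSC2 proteins form a GTPase-activating complex that switches off RHEB, the small GTPase that activates mTORC1 on lysosomes. EIF4EBP1 binds the cap-binding factor eIF4E and blocks initiation until mTORC1 phosphorylates it.

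The labels disagree on what was sequenced: the protocol describes ribosome footprints cut from a gel, while the molecule field says polyA RNA, and the values are read here as footprint counts on the strength of the protocol. Footprint counts follow both the amount of an mRNA and its load of ribosomes, and these were not separated because no matching RNA libraries were used here. Fewer cells with a transcript and less of it per cell likewise cannot be told apart in such bulk samples. Library totals were 29191146, 16940732 and 31557573 counts in the knockout and 5302160 and 4887380 counts in wild type, so that depth went with genotype. Levels are given as CPM, scaled by the TMM method to the library size, where 1 count equals 0.0339 to 0.0619 CPM in the knockout libraries and 0.172 to 0.187 CPM in the wild-type libraries. ZCCHC4 itself was at 3.85, 3.41 and 4.98 CPM in the knockout libraries, against 16.0 and 13.3 CPM in wild type, and so was reduced but still counted. BCR and ABL1, the genes joined in the leukaemia behind the line, had counts in every library. Of the blood cell markers, CD34 had 0 counts in each knockout library and 2 in each wild-type library. CD33 had 1 count in each knockout library and 0 in each wild-type library, while PTPRC, SPI1, GATA1 and RUNX1 had no row. Of the epithelial markers, EPCAM was at 5.17, 4.21 and 4.77 CPM in the knockout libraries, against 1.21 and 1.49 CPM in wild type. KRT18 overlapped, at 129.8, 153.3 and 130.6 CPM in the knockout libraries, against 153.0 and 143.6 CPM in wild type. CDH1 had 1 count in wild-type replicate 1 and none elsewhere, and KRT8 had no row. Of the mesenchymal markers, VIM and CDH2 rose and FN1 fell. The part of these differences in the results below was not tested. Knockout replicate 2 stood apart from the other knockout libraries, whose counts differed from it by a chi-square of 27.7 (replicate 1) and 24.6 (replicate 3) for each degree of freedom, where replicates 1 and 3 gave 2.97 between them. The deviation of replicate 2 went with the GC content of the coding sequence (Spearman rho of 0.74 across 9610 genes within these libraries, where genes are not independent). The wild-type libraries gave 1.14 and so differed little beyond counting noise. With the wild-type libraries summed, and knockout replicates 1 and 3 summed, 4614 genes passed in place of 6721, among them 7 of the 10.

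Across the 10 genes, 2 rose and 5 fell in the knockout, and 3 did not pass the test. TSC1 and AKT1S1 were the rises, and EIF4EBP1, MTOR, DEPTOR, TSC2 and RICTOR were the falls. Genes were tested with the quasi-likelihood method of edgeR, p-values were adjusted by Benjamini-Hochberg over all 11205 genes, and a gene passed at an adjusted p under 0.05. Of all genes tested, 60.0% passed, with 30.2% rising and 29.8% falling, so a count of 7 in 10 is close to the background. For these 7 genes every knockout library lay on 1 side of both wild-type libraries, as was so for 76.4% of all genes. The median log2 fold change, knockout over wild type, was -0.40 over the 10 genes and 0.02 over all genes tested. When libraries were scaled by their totals alone, the median of all genes moved to -0.20 with 2391 rises and 4564 falls, and RPTOR and RHEB joined the genes that fell.

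**Figure D1:**
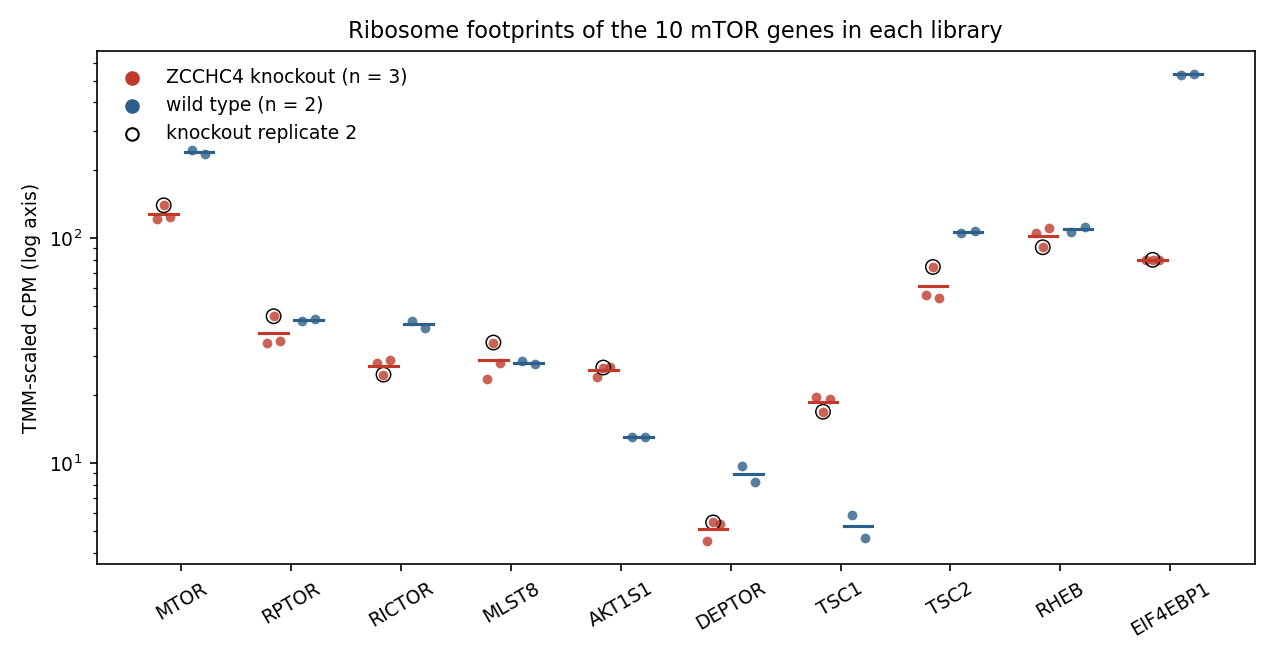
TMM-scaled CPM (log axis) of the 10 genes in each library, with ZCCHC4 knockout (n = 3) left of wild type (n = 2). Points are libraries, lines are means and the open circle marks knockout replicate 2. The points of the genotypes lie apart for 7 genes and overlap for RPTOR, MLST8 and RHEB.

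The translation repressor EIF4EBP1 showed the largest change of the 10 genes. It was at 79.7, 80.0 and 80.1 CPM in the knockout libraries, against 530.4 and 534.5 CPM in the wild-type libraries. The knockout libraries lay far below the wild-type libraries and within 1 CPM of each other. Their SD was 0.21% of the mean, below the 2.27% that counting alone would give, so this closeness does not measure precision. The change was 6.66-fold lower, a log2 fold change of -2.74 ± 0.07 (SE) with an edgeR adjusted p of 2.32e-08, which placed the gene at rank 7 of 11205 by p. Its raw counts were lower as well, at 2175, 1291 and 2364 in the much deeper knockout libraries, against 3075 and 2863 in wild type. The transcript (ENST00000338825, 3 exons) lies on the plus strand of GRCh38 chromosome 8, from 38030341 to 38060365, and 1 annotated pseudogene carries its name, so reads could have been shared with that copy. Genes around it were lower too. Of the 10 tested genes on each side, chosen after the values were seen, 12 fell and none rose (median -0.71), and EIF4EBP1 was the lowest of the 21. On chromosome 8 below 50 Mb, 104 of 143 tested genes fell and 9 rose, with a median of -0.90, and 13 of the 143 were lower than EIF4EBP1. The part of this stretch in the fall was not tested.

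The close relative EIF4EBP2 and the target eIF4E moved the other way. EIF4EBP2 was at 40.1, 34.4 and 43.2 CPM in the knockout libraries, against 24.1 and 25.0 CPM in wild type, a rise of 0.68 ± 0.13 on the log2 scale (adjusted p = 0.00173). EIF4E, the cap-binding factor that both repressors hold, was at 324, 273 and 314 CPM in the knockout libraries, against 188 and 194 CPM in wild type (0.67 ± 0.09, adjusted p = 2.15e-04). Every knockout library was above both wild-type libraries for either gene. Per kilobase of coding sequence, EIF4EBP1 made up 67.5 ± 2.52% of the summed level of EIF4EBP1 and EIF4EBP2 in the knockout (SD, n = 3) and 95.7 ± 0.0812% in wild type (SD, n = 2). The summed level of both repressors per EIF4E, again per kilobase, was 0.675, 0.766 and 0.717 in the knockout libraries, against 5.42 and 5.31 in the wild-type libraries. Footprints of the repressors thus outnumbered those of their target per unit length in wild type and were fewer than them in the knockout. The ratio of EIF4EBP1 to EIF4E counts, which does not depend on scaling between libraries, differed by -3.40 on the log2 scale, knockout minus wild type. Its exact two-sided permutation p was 0.1, the smallest that 10 splits of 5 libraries allow (0.2 after Benjamini-Hochberg adjustment over the 6 ratios examined). EIF4EBP3, the third relative, had 2 counts in knockout replicate 3, none in the other libraries, and was not tested.

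MTOR, the kinase of both complexes, fell in the knockout. It was at 121, 139.7 and 123 CPM in the knockout libraries, against 247 and 236 CPM in the wild-type libraries. Every knockout library was below both wild-type libraries, by 1.89-fold in the fit (log2 fold change -0.91 ± 0.09, adjusted p = 2.56e-05). The transcript (ENST00000361445, 58 exons) lies on the minus strand of chromosome 1, from 11106535 to 11262507. Of its 20 tested neighbours, 8 rose and 5 fell, with a median of 0.18.

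RPTOR, which recruits mTORC1 substrates, did not pass in the fit of all libraries. It was at 34.1, 44.9 and 34.7 CPM in the knockout libraries, against 42.6 and 43.7 CPM in wild type. Knockout replicate 2 lay above both wild-type libraries and the other knockout libraries lay below them. The log2 fold change was -0.19 ± 0.14 (adjusted p = 0.257, 95% interval -0.51 to 0.12), and without knockout replicate 2 it was -0.33 with an adjusted p of 4.04e-04. The transcript (ENST00000306801, 34 exons) lies on the plus strand of chromosome 17, from 80545268 to 80966368.

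RICTOR, the defining subunit of mTORC2, was at 27.7, 24.7 and 28.8 CPM in the knockout libraries, against 43.0 and 40.0 CPM in wild type. The genotypes did not overlap, and RICTOR fell 1.53-fold (log2 fold change -0.61 ± 0.11, adjusted p = 0.00116). The transcript (ENST00000357387, 38 exons) lies on the minus strand of chromosome 5, from 38937919 to 39074408. Its coding exons overlap an annotated exon of OSMR on the opposite strand, and the use of strand in counting is not given in the sources used here, so reads of the pair could have been mixed. OSMR was between 68.3 and 72.3 CPM in the knockout libraries and at 70.9 and 70.6 CPM in the wild-type libraries.

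MLST8, the small subunit of both complexes, was at 23.6, 34.3 and 27.8 CPM in the knockout libraries, against 28.5 and 27.4 CPM in wild type. The knockout libraries lay on either side of the wild-type libraries, with replicate 2 the highest. The log2 fold change was 0.02 ± 0.17 (adjusted p = 0.914, 95% interval -0.35 to 0.40), a direction that turned in 5 of 14 alternatives, among them the fit without knockout replicate 2 (-0.12). The transcript (ENST00000564088, 9 exons) lies on the plus strand of chromosome 16, from 2205177 to 2209396, not far from TSC2.

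Set against the kinase, the subunits were not evenly represented. Per kilobase of coding sequence, RPTOR stood at 0.537, 0.614 and 0.537 of the MTOR level in the knockout libraries, against 0.330 and 0.353 in wild type. RICTOR stood at 0.342, 0.264 and 0.348 of MTOR in the knockout libraries, against 0.260 and 0.253 in wild type, with replicate 2 close to the wild-type values. MLST8 stood at 1.52, 1.92 and 1.76 of MTOR in the knockout libraries, against 0.902 and 0.909 in wild type. For each subunit all 3 knockout libraries were above both wild-type libraries, and these comparisons were not tested. The RICTOR to RPTOR ratio differed by -0.42 on the log2 scale, knockout minus wild type, with 0.814, 0.551 and 0.829 in the knockout libraries, against 1.01 and 0.915 in wild type. All 3 knockout values were the lower ones, but the exact permutation p was 0.3 (adjusted p = 0.36), and without replicate 2 the difference was -0.22.

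**Figure D2:**
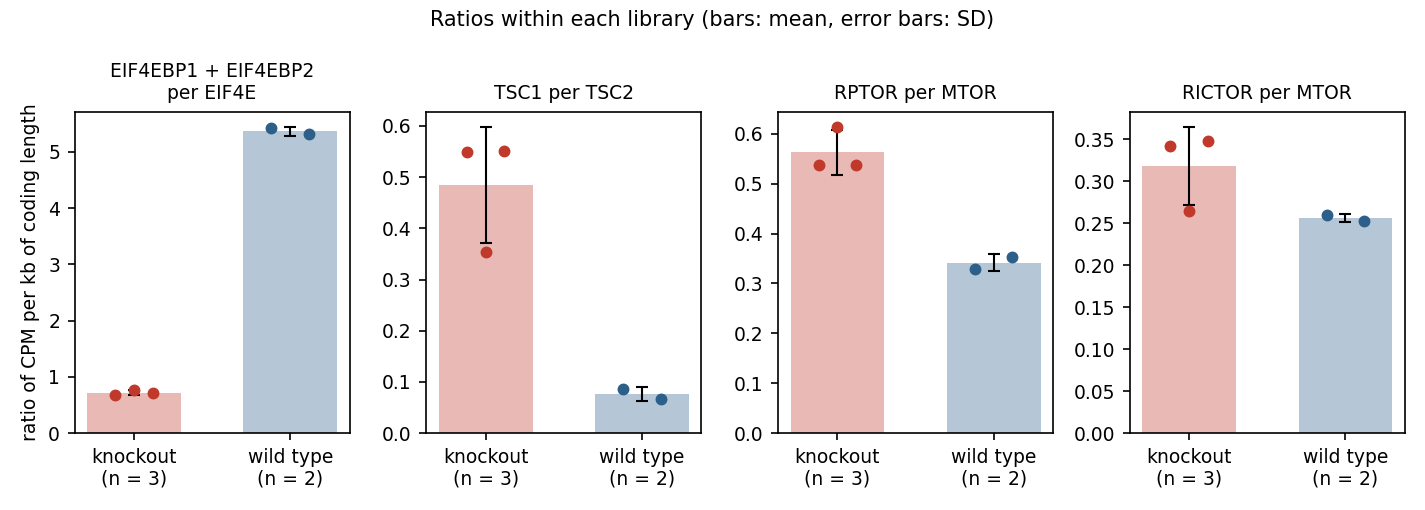
Ratios of footprint levels per kilobase of coding sequence within each library, with ZCCHC4 knockout (n = 3) left of wild type (n = 2). Points are libraries, bars are means and error bars are SD. The repressors per EIF4E average 0.719 in the knockout and 5.37 in wild type, and TSC1 per TSC2 averages 0.484 in the knockout and 0.0773 in wild type.

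The inhibitory subunits moved in opposite directions. AKT1S1, which binds RPTOR and is released when AKT phosphorylates it, was at 24.0, 26.6 and 26.8 CPM in the knockout libraries, against 13.1 and 13.1 CPM in wild type. All knockout libraries were above both wild-type libraries, a rise of 1.97-fold (log2 fold change 0.98 ± 0.13, adjusted p = 1.86e-04). Relative to RPTOR counts within a library, AKT1S1 was higher in the knockout by 1.17 on the log2 scale (exact permutation p = 0.1, the smallest possible here, adjusted p = 0.2). The transcript (ENST00000391834, 5 exons) lies on the minus strand of chromosome 19, from 49869033 to 49878356.

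DEPTOR, which binds the kinase itself in both complexes, was the lowest of the 10 genes in the knockout. It was at 4.51, 5.45 and 5.35 CPM in the knockout libraries, against 9.66 and 8.21 CPM in wild type. The groups did not overlap, and DEPTOR fell 1.76-fold (log2 fold change -0.82 ± 0.19, adjusted p = 0.00446). Only 56 and 44 counts in wild type lay behind this, and without wild-type replicate 1 the adjusted p was 0.0698. DEPTOR fell alongside MTOR, and the ratio of their counts differed by 0.10 on the log2 scale, less than the spread between libraries of a genotype (exact permutation p = 0.5, adjusted p = 0.5). The transcript (ENST00000286234, 9 exons) lies on the plus strand of chromosome 8, from 119873717 to 120050913. That is outside the low stretch of the chromosome: above 50 Mb, 86 of 245 tested genes rose and 70 fell. Of the 20 tested neighbours of DEPTOR, 4 rose and 6 fell, with a median of -0.16.

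The partners of the TSC complex also parted. TSC1, which stabilises TSC2, was at 19.7, 16.9 and 19.2 CPM in the knockout libraries, against 5.86 and 4.67 CPM in wild type. The groups were far apart, and the rise was 3.53-fold (log2 fold change 1.82 ± 0.18, adjusted p = 3.27e-05). The wild-type libraries held 34 and 25 counts of TSC1. TSC2, the catalytic partner, was at 55.6, 74.3 and 54.1 CPM in the knockout libraries, against 105 and 107 CPM in wild type. It fell 1.73-fold (log2 fold change -0.79 ± 0.14, adjusted p = 9.84e-04), with knockout replicate 2 between the other knockout libraries and wild type. Per kilobase of coding sequence, TSC1 stood at 0.550, 0.353 and 0.550 of TSC2 in the knockout libraries, against 0.0870 and 0.0676 in wild type. The TSC1 to TSC2 count ratio was 6.09-fold higher in the knockout (2.61 on the log2 scale, exact permutation p = 0.1, adjusted p = 0.2). TSC1 (ENST00000298552, 23 exons) lies on the minus strand of chromosome 9, from 132891348 to 132944633, and was the highest of 21 genes in its neighbourhood, whose median was 0.00. TSC2 (ENST00000219476, 42 exons) lies on the plus strand of chromosome 16, from 2047465 to 2088720.

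The upstream windows of this pair are shown because partners of 1 complex changed in opposite directions. Each holds the 250 bases before a RefSeq transcription start on GRCh38.p14, read 5′ to 3′ on the gene's strand, for TSC1 at chr9:132944617-132944866 (minus strand) and for TSC2 at chr16:2047735-2047984 (plus strand). Capitals mark matches, on either strand, to the E-box CACGTG, the C/EBP-ATF element TGATGNAA and the ETS core CCGGAAG, motifs chosen with the data known.
TSC1: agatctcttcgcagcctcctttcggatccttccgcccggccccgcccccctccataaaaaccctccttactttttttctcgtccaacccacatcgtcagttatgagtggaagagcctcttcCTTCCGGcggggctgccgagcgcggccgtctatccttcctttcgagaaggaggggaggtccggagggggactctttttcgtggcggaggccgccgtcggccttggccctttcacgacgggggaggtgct
TSC2: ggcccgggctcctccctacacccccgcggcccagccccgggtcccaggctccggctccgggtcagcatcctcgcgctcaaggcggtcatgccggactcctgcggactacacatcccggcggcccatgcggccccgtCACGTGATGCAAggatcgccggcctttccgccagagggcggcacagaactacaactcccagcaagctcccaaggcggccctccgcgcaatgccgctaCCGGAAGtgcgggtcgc
The TSC2 window holds an E-box that begins 114 bases before the start and overlaps a C/EBP-ATF element that begins at 110, and an ETS core at 17. The TSC1 window holds an ETS core, at 129, and neither of the other motifs. RefSeq has a second start for TSC2, and its window, at chr16:2047952-2048201, is not printed. That window overlaps the printed TSC2 window and holds 2 ETS cores and, like the TSC1 window, neither of the other motifs. The core that begins at 234 in it is the same site as the core at 17 in the printed window. Of 35116 such windows, 6.34% hold the E-box, 3.14% the C/EBP-ATF element and 8.52% the ETS core. The match is a description of these letters and no binding was measured. The TSC2 transcript in the count table begins at 2047465, before either TSC2 window. Both TSC2 windows thus lie within the span of that transcript and not upstream of it. Of the 10 genes, 6 had a window in the RefSeq table.

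RHEB, the GTPase that the TSC complex switches off, did not pass the test. It was at 105, 90.9 and 111 CPM in the knockout libraries, against 107 and 112 CPM in wild type. The groups overlapped, with a log2 fold change of -0.09 ± 0.10 (adjusted p = 0.482, 95% interval -0.32 to 0.14). When scaled by library totals alone the value was -0.31 and passed (adjusted p = 0.0217), and without knockout replicate 2 it was -0.0094 (adjusted p = 0.888). Relative to TSC2, RHEB counts were higher in the knockout by 0.71 on the log2 scale (exact permutation p = 0.2, adjusted p = 0.3). The transcript (ENST00000262187, 8 exons) lies on the minus strand of chromosome 7, from 151466012 to 151519924, and 3 annotated pseudogenes carry its name, so its value is uncertain where reads were shared.

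**Figure D3:**
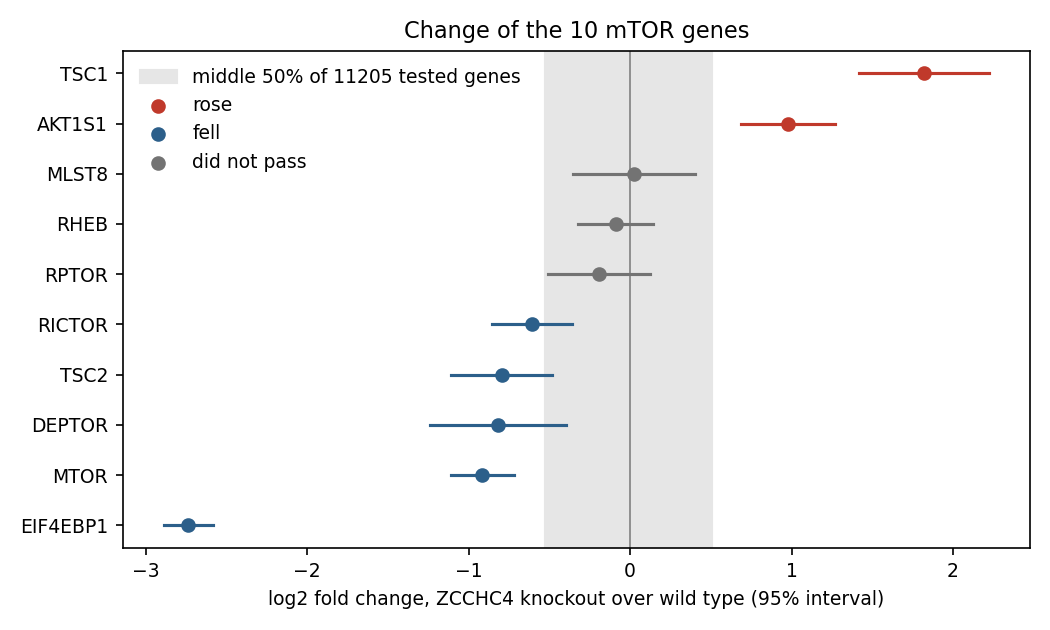
Log2 fold change, ZCCHC4 knockout over wild type, of the 10 genes with 95% intervals from edgeR. The grey band is the middle 50% of the 11205 tested genes (-0.53 to 0.51), and the points of the 7 genes that passed lie outside it.

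Levels per kilobase of coding sequence ran over more than 2 orders of magnitude between the 10 genes in wild type. EIF4EBP1 was the highest in wild type, at 1504 CPM per kilobase, followed by RHEB at 198, MTOR at 31.6, MLST8 at 28.6, TSC2 at 19.5, AKT1S1 at 17.0, RPTOR at 10.8, RICTOR at 8.09, DEPTOR at 7.28 and TSC1 at 1.51. In the knockout EIF4EBP1, at 225.8, and RHEB, at 186, were neighbours in that order, while AKT1S1 at 33.6 and MLST8 at 29.2 overlapped between libraries, as did TSC1 at 5.32 and RICTOR at 5.29. MTOR and MLST8 in wild type differed by more than the spread between libraries, while RICTOR and DEPTOR overlapped, with the lower RICTOR library at 7.80 and the higher DEPTOR library at 7.87.

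Knockout replicate 2 shifted the 10 genes unevenly. Relative to the mean of replicates 1 and 3 it was higher by 0.44 for TSC2, 0.41 for MLST8 and 0.38 for RPTOR on the log2 scale, whose coding sequences have 60.2, 61.2 and 59.1% GC. It was lower by 0.25 for RHEB, by 0.19 for RICTOR and by 0.19 for TSC1, at 40.6, 40.6 and 50.7% GC. Genes of similar GC content shifted by medians of 0.20 for TSC2 and RPTOR, 0.27 for MLST8, -0.28 for RHEB and RICTOR and -0.04 for TSC1. MTOR and DEPTOR were higher by 0.19 and 0.14, where genes of similar GC content shifted by a median of 0.035. AKT1S1 and EIF4EBP1 have the highest GC content, 68.4 and 64.4%, and shifted by 0.06 and 0.00, where genes of similar GC content shifted by a median of 0.34. Genotype differences went with GC content far less, with a Spearman rho of -0.03 across the 9610 genes, and with coding length at -0.16. Without replicate 2, 8 of the 10 genes passed, of which 2 rose and 6 fell, where 8176 of 11161 tested genes passed in all.

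**Figure D4:**
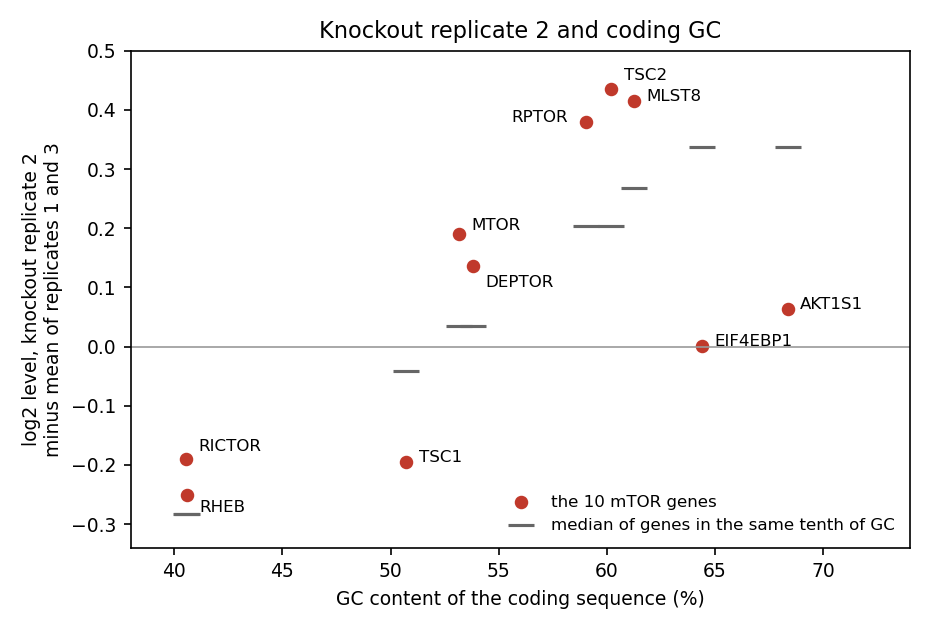
Log2 level in knockout replicate 2 minus the mean of knockout replicates 1 and 3, against the GC content of the coding sequence, for the 10 genes (points). Short lines give the median of all genes with at least 3 CPM of similar GC content. TSC2, MLST8 and RPTOR lie above 0 and RHEB, RICTOR and TSC1 below it.

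The remaining genes of the pathway were described by lists chosen by function. Over all tested genes 60.0% passed, with 30.2% rising and 29.8% falling, and each list is set against that share. Among other subunits and relatives of the complexes, 3 of 8 tested rose and 2 fell, so 62.5% passed. The median log2 fold change was 0.24, against 0.02 for all genes. TELO2, a chaperone adaptor that assembles mTOR and related kinases, was at 55.8, 77.4 and 53.7 CPM in the knockout libraries, against 19.1 and 18.5 CPM in wild type (1.72 ± 0.19, adjusted p = 6.66e-05), with replicate 2 the highest. MAPKAP1 (SIN1), a further subunit of mTORC2, fell as RICTOR did, to 31.1 ± 0.965 CPM in the knockout, against 50.0 ± 0.639 CPM in wild type (SD over 3 and 2 libraries), which is -0.68 ± 0.09 on the log2 scale. PRR5, another mTORC2 partner, was at 2.33 ± 1.26 CPM in the knockout and 1.81 ± 0.608 CPM in wild type and did not pass (0.28 ± 0.57). RHEBL1, a relative of RHEB, fell by 2.37 on the log2 scale and was low throughout, at 0.475 CPM in the knockout and 2.51 CPM in wild type. Among genes averaging 50 counts or more, 3 of the 5 tested from the list passed, where 5718 of 9522 passed in all. With library totals 2 of the list rose and 3 fell, where 2391 of all genes rose and 4564 fell. The third TSC subunit, TBC1D7, had no row and was not analysed here.

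Rag GTPases and Ragulator tether mTORC1 to the lysosome when amino acids are present. Of 12 tested, 6 rose and 3 fell (median 0.16), so 75% passed, against 60.0% of all tested genes. RRAGA was at 78.8, 90.4 and 81.4 CPM in the knockout libraries, against 46.6 and 43.1 CPM in wild type (0.90 ± 0.10, adjusted p = 8.57e-05). Its close relative RRAGB fell, with 8.69, 7.31 and 9.41 CPM in the knockout libraries, against 16.2 and 18.7 CPM in wild type (-1.03 ± 0.16). Any reads shared between the pair would make both values uncertain, and such sharing was not tested. RRAGD (0.76 ± 0.15) and RRAGC (0.26 ± 0.09) rose, as did the Ragulator anchor LAMTOR1 (0.37 ± 0.11), while LAMTOR2 fell by 0.92 ± 0.13 on the log2 scale. FLCN, a GTPase-activating protein for RagC and RagD, was at -0.04 ± 0.11 and did not pass. The number that passed was 9 with all libraries and 5 with the replicate number as a block, where 6094 of 11205 tested genes passed in all. Fewer also passed without either wild-type replicate and with near-identical libraries summed, as over all genes. Those fits left no spread within wild type. With library totals, 2 rose and 4 fell, where 2391 of all genes rose and 4564 fell. With upper quartile scaling 3 rose and 3 fell, where 3035 of all genes rose and 3653 fell.

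GATOR1, which switches the Rag GTPases off, GATOR2, which opposes GATOR1, and the KICSTOR scaffold gave no rise and 5 falls among 11 tested, with a median of -0.14. That is 45.5% passed, below the 60.0% of all tested genes. NPRL2 of GATOR1 was at 20.0, 26.6 and 20.3 CPM in the knockout libraries, against 39.2 and 39.2 CPM in wild type (-0.82 ± 0.14, adjusted p = 0.00105). WDR59 of GATOR2 fell by a similar amount (-0.86 ± 0.13). DEPDC5, the GATOR1 subunit that contacts the Rag proteins, was at -0.14 ± 0.20 and did not pass. Fewer passed without wild-type replicate 2 and with near-identical libraries summed, as over all genes. Those fits left no spread within wild type.

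Stress and amino acid sensors that restrain mTORC1 gave 3 rises and 3 falls among 8 tested, with a median of -0.10. The share that passed was 75%, against 60.0% of all tested genes. The leucine sensor SESN2 was at 29.9, 44.8 and 30.7 CPM in the knockout libraries, against 79.3 and 84.6 CPM in wild type (-1.23 ± 0.17, adjusted p = 2.36e-04). SESN1 fell as well, by 0.65 ± 0.09, and SESN3 rose by 0.90 ± 0.13 on the log2 scale, so the 3 sestrins did not move together. DDIT4 (REDD1), a stress-induced activator of the TSC complex, was at 21.2, 26.4 and 20.4 CPM in the knockout libraries, against 12.2 and 11.2 CPM in wild type (0.94 ± 0.17, adjusted p = 0.00117). Its relative DDIT4L had no count in wild type and 256, 145 and 257 counts in the knockout libraries, at least 33.5-fold higher when wild type is set to 3 counts over both libraries, a limit that covers counting error only. The arginine sensor CASTOR1, listed as GATSL3, was at 2.23 ± 0.166 CPM in the knockout and 2.64 ± 1.54 CPM in wild type and did not pass.

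In the growth factor branch of insulin, PI3K and AKT, 6 of 12 tested genes fell and 1 rose (median -0.41). In this branch 58.3% passed, close to the 60.0% of all tested genes. IRS2, an adaptor of the insulin receptor, was at 7.88, 10.8 and 9.01 CPM in the knockout libraries, against 30.9 and 28.2 CPM in wild type (-1.69 ± 0.16, adjusted p = 2.37e-05). The catalytic subunit PIK3CA fell too (-0.89 ± 0.12). AKT1 was at 35.6 ± 5.50 CPM in the knockout and 35.3 ± 0.561 CPM in wild type (0.00 ± 0.14), AKT2 at 29.5 ± 2.07 CPM in the knockout and 30.5 ± 4.26 CPM in wild type (-0.05 ± 0.12) and IRS1 at -0.38 ± 0.26, and none of these passed. With library totals, 1 rose and 8 fell, where 2391 of all genes rose and 4564 fell.

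The energy-sensing branch of LKB1 and AMPK, which activates the TSC complex and restrains RPTOR, passed in all 9 tested genes, with 6 falls, 3 rises and a median of -0.36, where 60.0% of all tested genes passed. STK11 (LKB1) was at 7.55, 8.92 and 7.38 CPM in the knockout libraries, against 17.6 and 16.2 CPM in wild type (-1.10 ± 0.15, adjusted p = 2.55e-04). The AMPK beta subunits PRKAB2 (-1.55 ± 0.13) and PRKAB1 (-0.48 ± 0.10) fell, while the catalytic subunit PRKAA1 rose by 0.35 ± 0.10 on the log2 scale. The list had no rise with library totals, without wild-type replicate 2 or with near-identical libraries summed. In all, 5 passed without wild-type replicate 1, 5 without wild-type replicate 2, 6 with the replicate number as a block and 3 with near-identical libraries summed. The counts over all genes in these settings, in the same order, were 4698, 4818, 6094 and 4614.

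Among 18 direct substrates and effectors of mTOR, 8 rose and 4 fell (median -0.08), so 66.7% passed, against 60.0% of all tested genes. Besides EIF4E, the scaffold EIF4G1 was at 962, 927 and 989 CPM in the knockout libraries, against 665 and 690 CPM in wild type (0.50 ± 0.06, adjusted p = 1.37e-04), and the helicase cofactor EIF4B rose by 0.59 ± 0.07. LPIN1, a phosphatidate phosphatase, rose by 0.86 ± 0.10, LARP1, which binds mRNAs with a terminal oligopyrimidine (TOP) start, by 0.47 ± 0.08, and PDCD4, an inhibitor of the helicase eIF4A, by 0.47 ± 0.10. TFEB, a transcription factor of lysosomal genes that mTORC1 keeps out of the nucleus, fell by 0.86 ± 0.21 on the log2 scale. The S6 kinases RPS6KB1 (-0.11 ± 0.10) and RPS6KB2 (-0.06 ± 0.21), the autophagy kinase ULK1 (-0.13 ± 0.23) and the elongation factor kinase EEF2K (-0.20 ± 0.09) did not pass. With library totals, 7 rose and 8 fell, where 2391 of all genes rose and 4564 fell. The list had 8 rises and 7 falls without knockout replicate 2, where 4164 of all genes rose and 4012 fell. Fewer passed without wild-type replicate 1 and with near-identical libraries summed, as over all genes.

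TOP mRNAs outside the ribosomal proteins, whose translation depends on mTORC1, gave 6 rises and 1 fall among 12 rows tested (median 0.25). Of these rows 58.3% passed, close to the 60.0% of all tested genes. Many of the genes on this list have processed copies that could share reads. PABPC1, the poly(A)-binding protein, was at 929, 834 and 909 CPM in the knockout libraries, against 697 and 667 CPM in wild type (0.39 ± 0.07, adjusted p = 0.00118). HNRNPA1 (0.99 ± 0.07) and VIM, a cytoskeletal protein also used as a mesenchymal marker (1.95 ± 0.08), rose more. The elongation factor EEF2 was at 4047 ± 645 CPM in the knockout and 3489 ± 49.1 CPM in wild type (0.21 ± 0.11), and TPT1 at 1051 ± 124 CPM in the knockout and 1095 ± 18.5 CPM in wild type (-0.06 ± 0.09), and neither passed. EEF1A1 had no row and was not analysed here. Without knockout replicate 2, 11 rows passed, 9 higher and 2 lower, where 8176 of 11161 tested genes passed in all. Fewer passed with near-identical libraries summed, as over all genes. With library totals, 5 rose and 3 fell, where 2391 of all genes rose and 4564 fell. With upper quartile scaling 5 rose and 2 fell, where 3035 of all genes rose and 3653 fell.

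**Figure D5:**
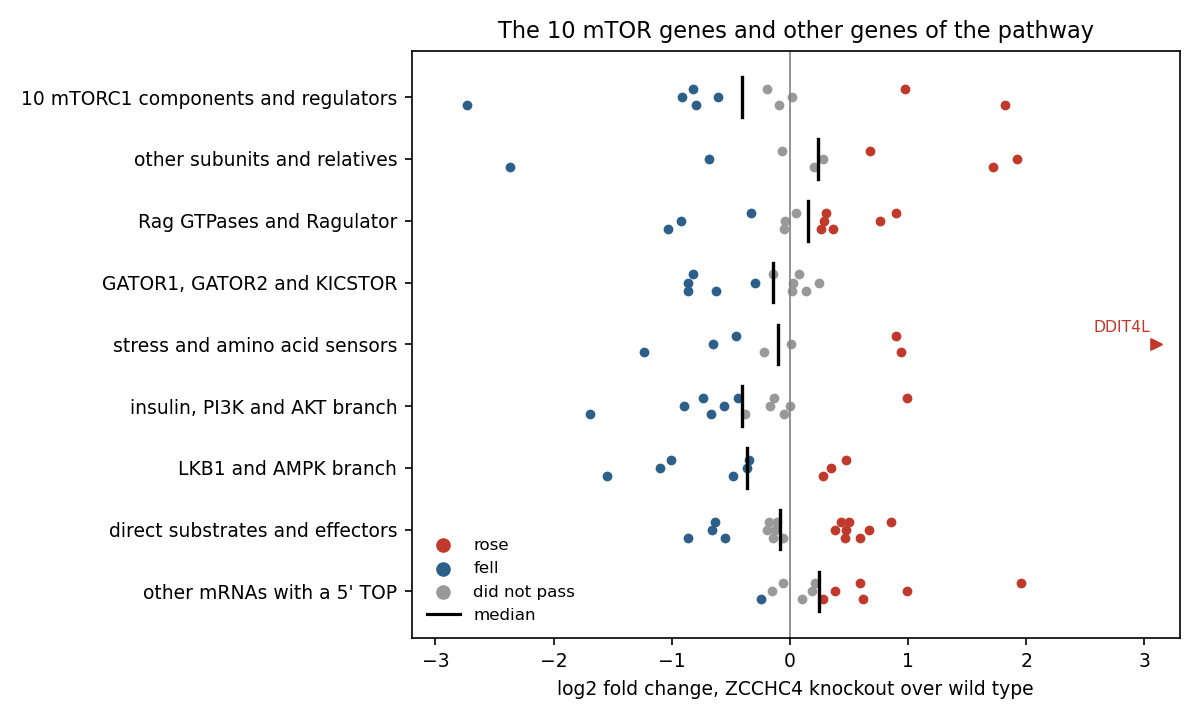
Log2 fold change, ZCCHC4 knockout over wild type, of the tested genes of each list, with the 10 mTORC1 components and regulators in the top line. Each point is a gene, coloured by whether it rose, fell or did not pass, and the black line is the list's median. DDIT4L, with no wild-type count, lies beyond the right edge.

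The genes whose library profiles lay nearest to those of the strongest rise and fall were sought among 11204 candidates. The measure was the Euclidean distance between log2 CPM over the 5 libraries, each centred on its mean. A prior count of 2 was added before the log, which shrinks the differences of genes with low counts. CLK1, a kinase of splicing factors, and C9orf135 were nearest to TSC1, at distances of 0.0959 and 0.108, with log2 fold changes of 1.74 ± 0.15 and 1.83 ± 0.27. TCP10L and MACROD1 were nearest to EIF4EBP1, at 0.0613 and 0.219, with log2 fold changes of -3.08 ± 0.36 and -2.63 ± 0.10. TCP10L had only 0.303 CPM in the knockout and 2.60 CPM in wild type, so its small distance depends on the added count.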

How the data were processed

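The 5 HAP1 libraries were grouped by the genotype in the labels. Per the labels' protocols they hold ribosome-protected fragments, while the molecule field of the labels says polyA RNA, and this conflict could not be settled from the counts. The authors deposited whole-number counts per transcript, not normalized. Per the submitters' processing notes, Bowtie and the hg38 build were used, while the counting tool, trimming, removal of duplicates and rRNA reads, strand and the treatment of multiply mapping reads were not stated in any source used here. The header of the table was shifted by 1 cell, and columns were assigned by name after that shift.

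The 10 genes, the 8 other pathway lists and the tests were chosen with earlier results of these data known. The fit over all genes used edgeR 4.0.16 under R 4.3.3, with genotype as its only term, TMM scaling, the quasi-likelihood F-test (glmQLFit, glmQLFTest), a filter by filterByExpr at 10 counts, and Benjamini-Hochberg adjusted p under 0.05. The SE is the size of the log2 fold change divided by the square root of F. Ratios of gene pairs used log2 counts with 0.5 added and an exact two-sided permutation test. The procedure was tested on simulated data with few changed genes and no deviating library. That setting differs from these data, so the test does not cover them. Transcripts were placed with GENCODE 29, and levels between genes were compared per coding length. Alternatives were RLE, upper quartile and total scaling, other filters, DESeq2 1.42.0, each library left out, a replicate block, thinning to equal depth and summing near-identical libraries. All 10 genes were named, with the 3 smallest adjusted p of each other list and genes fixed by role, except for some that are not reported here.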

Additional observations from a re-analysis of the deposited data

How the results depend on the processing

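The 7 calls among the 10 genes kept their direction in all 14 alternatives, and they passed in all of these except DEPTOR without wild-type replicate 1. The number that passed was 6 to 8 when a library was left out, 9 with library totals and 7 in the other alternatives. The count over all genes was 4698 to 8176 when a library was left out and 4614 with near-identical libraries summed. MLST8, which did not pass in any setting, was at -0.0383 with the upper quartile, -0.19 with library totals, -0.0488 among genes averaging 50 counts or more, and -0.12 to 0.14 when a library was left out. RPTOR passed without knockout replicate 2 and with library totals (-0.41), and RHEB with library totals. Samples with the same replicate number had correlations of -0.05 for both pairs in their deviations from the group means. With 2 wild-type libraries these deviations mirror each other, so the pairs are not independent and the check cannot decide pairing. The replicate numbers were not taken to pair the libraries in the main fit. With a replicate block, 7 of the 10 genes passed (2 rose and 5 fell) and 6094 of all genes. Knockout replicate 3 has no wild-type partner, so within the block it does not inform the genotype difference. The 6 ratios moved by less than their spread when each library was left out or 1 count was added. For the ratios the replicate block is the same as leaving out knockout replicate 3, with 2.50 for TSC1 to TSC2 in either. The cause of these differences between settings was not tested. The low wild-type depth limits TSC1 and DEPTOR most.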

Other observations

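Relatives within the Rag GTPases differed in their shares of the footprints. Per kilobase of coding sequence, RRAGA made up 91.6, 93.7 and 91.2% of the summed level of RRAGA and RRAGB in the knockout libraries, against 77.4 and 73.4% in the wild-type libraries, so the groups did not overlap. RRAGC made up 69.1, 73.2 and 69.8% of the summed level of RRAGC and RRAGD in the knockout libraries, against 75.5 and 79.1% in wild type. These shares were computed after the values were seen and were not tested, and whether the relatives RRAGA and RRAGB shared reads was not tested either.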
